A study of Mus musculus with 6 samples.

Results

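Il33 and Tslp, with the subunits of their receptors, are the subject here. They are the 6 genes Il33, Il1rl1, Il1rap, Tslp, Crlf2 and Il7r, taken by symbol from a deposited table of 47729 genes. Each symbol matched 1 gene and each gene passed the low-count filter. The set was selected on their levels in these same libraries and on the differences between the gels, which were known from earlier results. Those differences are therefore a description, and the p-values printed with them support nothing.

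Messenger RNA was sequenced from mouse epidermis, in 3 libraries after AKBA gel and in 3 after a control gel. AKBA is the usual abbreviation of a boswellic acid derivative from Boswellia resin. All mice were wild-type C57BL/6, and the epidermis was parted from the dermis with Dispase II. The control libraries carry the letters IMQ in their descriptions, which are not spelled out there, and any further treatment of either group is not stated. The age of the mice and the number of animals behind a library are not stated either, so every p-value here rests on variation among libraries that could be technical. Depth was 19066045 to 22760432 counts per library. The tissue label was checked against its markers. Summed over 6 basal keratinocyte markers the libraries held 10160 to 32980 CPM (counts scaled to the size of the library, with TMM scaling for its composition), and over 6 suprabasal markers 25370 to 65120 CPM. They also held 19900 to 36310 CPM of 8 fibroblast markers and 3848 to 7159 CPM of 6 skeletal muscle markers, so the values describe a mixed tissue. In such bulk samples fewer cells of a type and less RNA per cell cannot be told apart.

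IL-33 is a cytokine of the IL-1 family that epithelial and endothelial cells keep in the nucleus and release when they are damaged. It binds ST2, the product of Il1rl1, which pairs with the accessory protein encoded by Il1rap and signals through MyD88 and NF-κB. TSLP is a relative of IL-7 made by epithelial cells, and its receptor joins CRLF2 to the IL-7 receptor α chain, Il7r, and signals through JAK kinases and STAT5. In skin both cytokines act on mast cells, dendritic cells, group 2 innate lymphoid cells and T cells, and are known for their part in type 2 inflammation.

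Il33 and Il1rl1 each have a pair of annotated start sites, and the counts per gene add up transcripts from both. The windows before them are shown because these genes had the largest differences between groups among the 6. The sequences are those of RefSeq on GRCm38.p6, and each window covers the 250 bases before a start on the plus strand. Windows of Il33 lie at chr19:29924863-29925112 and chr19:29945540-29945789, those of Il1rl1 at chr1:40429320-40429569 and chr1:40439379-40439628. Capitals mark a match on either strand to the GATA core GATAA or the TATA box TATAAA.
Il33 upstream start: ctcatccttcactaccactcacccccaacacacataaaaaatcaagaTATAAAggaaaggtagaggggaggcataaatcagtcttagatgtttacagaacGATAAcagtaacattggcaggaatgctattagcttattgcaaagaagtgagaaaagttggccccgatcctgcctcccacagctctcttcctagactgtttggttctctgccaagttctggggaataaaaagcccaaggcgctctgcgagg
Il33 downstream start: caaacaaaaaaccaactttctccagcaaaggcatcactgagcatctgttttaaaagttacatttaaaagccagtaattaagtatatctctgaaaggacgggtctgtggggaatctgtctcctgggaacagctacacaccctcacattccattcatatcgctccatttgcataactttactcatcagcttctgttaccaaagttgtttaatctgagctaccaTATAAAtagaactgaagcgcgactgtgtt
Il1rl1 upstream start: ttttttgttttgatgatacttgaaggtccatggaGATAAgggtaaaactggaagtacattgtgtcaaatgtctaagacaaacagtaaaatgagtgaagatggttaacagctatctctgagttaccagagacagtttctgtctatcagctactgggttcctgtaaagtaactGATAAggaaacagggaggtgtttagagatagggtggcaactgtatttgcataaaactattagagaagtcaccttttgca
Il1rl1 downstream start: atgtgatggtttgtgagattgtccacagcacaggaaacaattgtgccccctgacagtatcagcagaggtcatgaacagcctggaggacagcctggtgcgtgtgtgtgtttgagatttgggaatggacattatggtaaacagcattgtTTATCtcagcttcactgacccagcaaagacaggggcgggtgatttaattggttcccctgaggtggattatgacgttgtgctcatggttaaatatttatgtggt
The upstream window of Il1rl1 held GATAA at 2 places, and its downstream window held the same motif once on the other strand. In Il33 the upstream window held 1 GATAA and 1 TATAAA, the downstream window 1 TATAAA that begins 29 bases before the start. Of all 32851 windows of this length in the table, 22.6% held GATAA and 12.4% held TATAAA. The AP-1 motif TGANTCA, the STAT motif TTCNNNGAA and the κB-like motif GGGNNNNNCC were searched on both strands too and have no match in these 4 windows. They were found in 6.75%, 7.02% and 45.8% of all windows. Matches are a description of letters, not of binding.

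Il33, the ligand, had low levels in all AKBA libraries and high levels in 2 of the 3 control libraries. The gene lies on chromosome 19, 29925114 to 29960718 on GRCm38, with no overlapping gene in GENCODE M21. Il33 had 384, 464 and 443 counts in the AKBA libraries (replicates 1 to 3), against 536, 2481 and 4382 counts in the control libraries. Scaled to CPM this was 18.8, 24.7 and 18.9 in AKBA libraries and 25.5, 108.3 and 209.9 in control libraries. The AKBA libraries were close together, and control replicate 1 stood next to them while control replicates 2 and 3 stood far above. The groups did not overlap, but the gap between them was small. AKBA replicate 2 (24.7 CPM, exact Poisson 95% interval 22.5 to 27.0) and control replicate 1 (25.5 CPM, 23.4 to 27.8) were not separated beyond counting error, the only error such intervals cover. The AKBA libraries averaged 20.8 ± 3.35 CPM and the control libraries 114.6 ± 92.4 CPM (SD, n = 3 each).

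Across the whole table the edgeR quasi-likelihood test called 0 of 17023 genes (0.0%) at an adjusted p threshold of 0.05, while 2291 genes (13.5%) had an unadjusted p under 0.05, 7.01% of all tested genes being lower with AKBA gel and 6.45% higher. Of the 6 genes Il33, Il1rl1 and Crlf2 were among the lower ones and 0 among the higher ones. DESeq2 called 209 genes lower (1.33% of 15752) and 95 higher (0.603%). For Il33 the log2 fold change, taken as AKBA over control, was -2.46 ± 0.64 (SE), with an edgeR adjusted p of 0.331 and a DESeq2 adjusted p of 0.0658. Without control replicate 3 the log2 fold change was -1.69, and without control replicate 1 it was -2.93. The authors' deposited table gives Il33 a log2 fold change of -2.42 with an adjusted p of 0.000349, and lists it among 158 genes called lower (0.331% of all genes in that table).

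**Figure D1:**
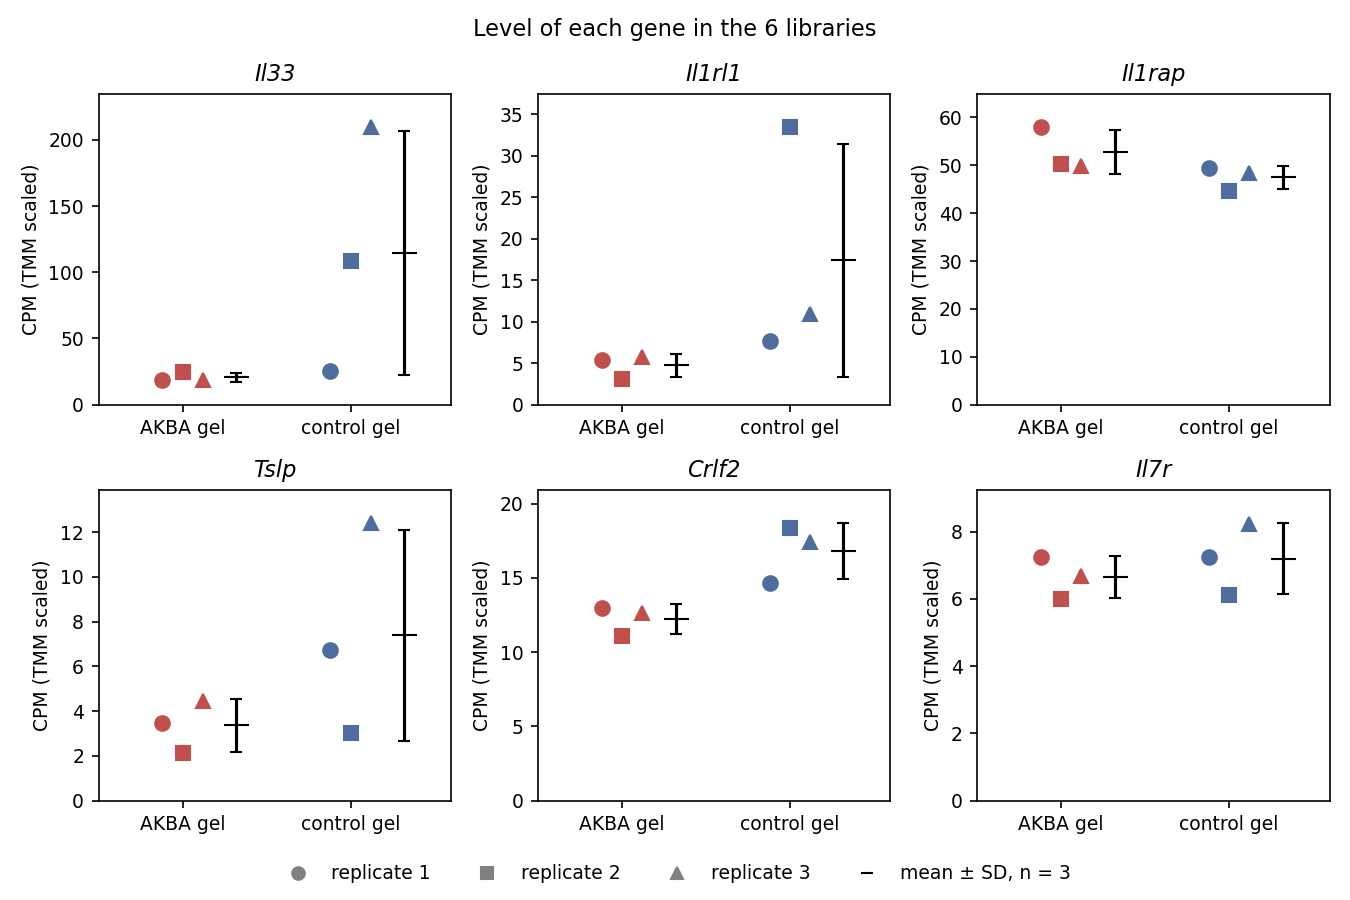
CPM after TMM scaling of the 6 genes in each library, AKBA gel (red) left of control gel (blue), with a marker shape for each replicate number and the mean ± SD beside the points. The control libraries of Il33 run from 25.5 to 209.9 CPM while its AKBA libraries lie between 18.8 and 24.7 CPM, and Il7r and Il1rap vary little in either group.

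The spread of Il33 within the control group was wide for these data. Its highest control library was 8.23 times its lowest, a ratio that 0.699% of the 17023 tested genes reached, and the median tested gene had a ratio of 1.33. Among the AKBA libraries the ratio for Il33 was 1.31, close to the median gene at 1.3. Tslp and Il1rl1 were also spread in the control group, with ratios of 4.12 and 4.37, which 2.21% and 1.91% of tested genes reached. The other receptor subunits were not, with control ratios of 1.1 for Il1rap, 1.25 for Crlf2 and 1.35 for Il7r. Because the genes were chosen with these levels known, the ratios and shares are a description and support nothing.

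Il1rl1 encodes ST2, the chain that binds IL-33 (chromosome 1, 40429570 to 40465415). Its counts were 109, 59 and 135 in AKBA libraries, against 161, 767 and 229 in control libraries. As CPM these were 5.35, 3.14 and 5.75 in AKBA libraries and 7.67, 33.5 and 10.97 in control libraries. All AKBA libraries lay below all control libraries, and control replicate 2 stood far above the rest. This is not the control library in which Il33 was highest, which was replicate 3. The nearest pair, AKBA replicate 3 (5.75 CPM, exact Poisson 95% interval 4.82 to 6.81) and control replicate 1 (7.67 CPM, 6.53 to 8.95), had intervals that overlap. The log2 fold change was -1.87 ± 0.55 (SE), with an adjusted p of 0.331 by edgeR and of 0.0136 by DESeq2. It was -0.98 without control replicate 2. In the authors' deposited table Il1rl1 was called lower, with a log2 fold change of -1.72 and an adjusted p of 0.00822. GENCODE lists 5 coding transcripts of Il1rl1, and the gene is known for both a membrane and a secreted form of ST2, the secreted one a decoy for IL-33. Counts per gene do not tell these forms apart.

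Il1rap encodes the accessory chain that ST2 shares with the IL-1 and IL-36 receptors (chromosome 16, 26581704 to 26730117). It had 1183, 946 and 1170 counts in AKBA libraries and 1036, 1023 and 1011 counts in control libraries. The CPM values of 58.0, 50.3 and 49.9 in AKBA libraries stood above those of 49.3, 44.7 and 48.4 in control libraries, with a gap smaller than the counting error of a library. The log2 fold change of 0.15 ± 0.11 (SE, edgeR adjusted p = 0.563) is the only positive one among the 6 genes. Gm20319, on the other strand, overlaps Il1rap and held 1 to 4 counts per library.

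Tslp, the second ligand, lies on chromosome 18. Its counts were 71, 40 and 105 in AKBA libraries, against 141, 69 and 259 in control libraries. These correspond to 3.48, 2.13 and 4.47 CPM in AKBA libraries and 6.71, 3.01 and 12.4 CPM in control libraries. The groups overlapped, since control replicate 2 lay below AKBA replicates 1 and 3. Control replicate 2 thus held the lowest control level of Tslp and the highest of Il1rl1. The log2 fold change was -1.12 ± 0.50 (SE), with an adjusted p of 0.388 by edgeR and 0.208 by DESeq2, and it was -0.52 without control replicate 3. The authors' deposited table gives -1.01 with an adjusted p of 0.239. A long noncoding RNA on the other strand, 4930455D15Rik, overlaps Tslp and held at most 2 counts in a library.

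Crlf2 encodes the chain that binds TSLP (chromosome 5, 109554709 to 109558993). Its levels were 13.0, 11.1 and 12.7 CPM in AKBA libraries, from 265, 209 and 297 counts, and 14.7, 18.3 and 17.4 CPM in control libraries, from 308, 420 and 363 counts. The groups did not overlap and each was narrow, with means of 12.3 ± 1.01 CPM in AKBA libraries and 16.8 ± 1.91 CPM in control libraries (SD, n = 3 each). The log2 fold change was -0.45 ± 0.14 (SE), with an adjusted p of 0.334 by edgeR and 0.163 by DESeq2, and it stayed between -0.53 and -0.39 when any 1 library was left out. In the authors' deposited table it was -0.42, with an adjusted p of 0.425.

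Il7r encodes the IL-7 receptor α chain, which serves both IL-7 and TSLP (chromosome 15, 9505788 to 9530176). It had 148, 113 and 157 counts in AKBA libraries and 152, 140 and 172 counts in control libraries. The CPM values of 7.26, 6.01 and 6.69 in AKBA libraries overlapped with those of 7.24, 6.11 and 8.24 in control libraries. The log2 fold change was -0.11 ± 0.18 (SE, edgeR adjusted p = 0.82). Of the 6 genes, Il33, Il1rl1 and Crlf2 had all AKBA libraries below all control libraries, and Il1rap had them above. Over all tested genes these patterns were seen in 9.1% and 9.28%, and nothing is read from the comparison since the genes were chosen with it in view.

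**Figure D2:**
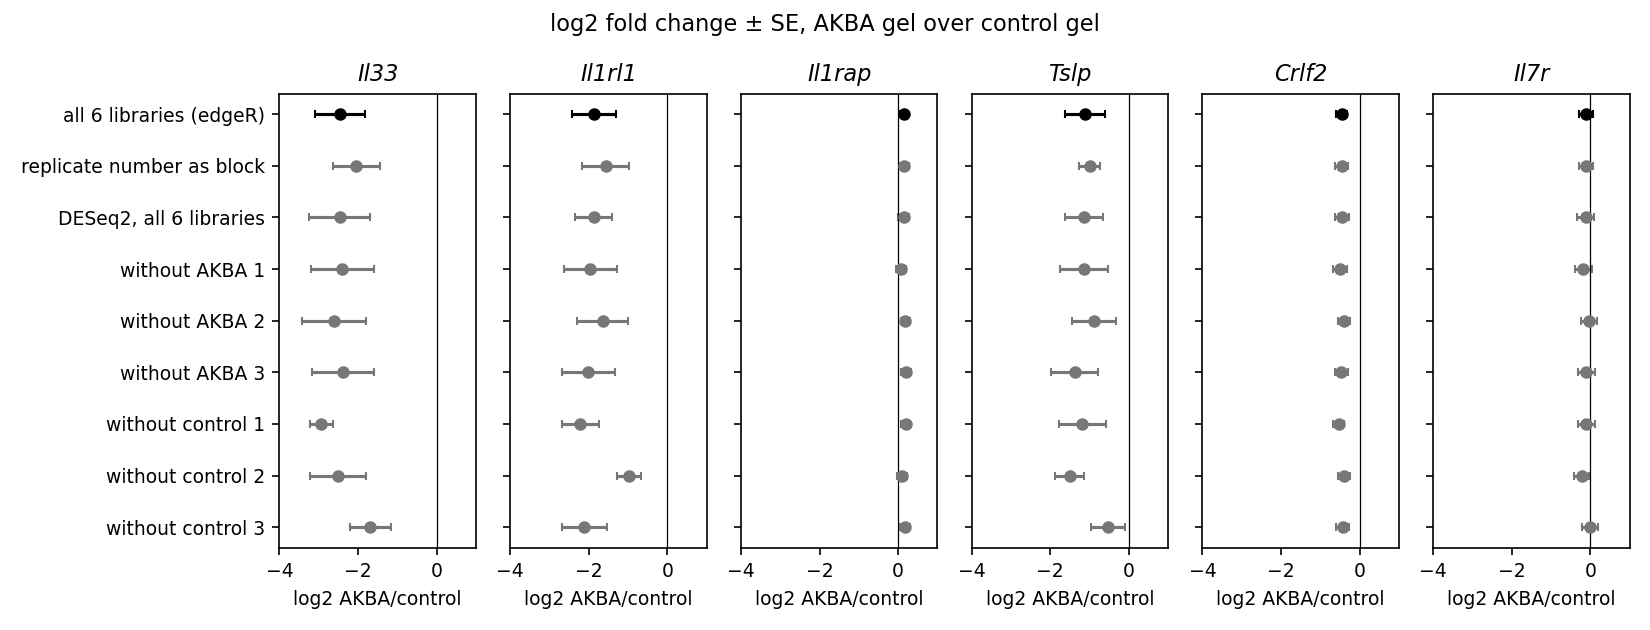
log2 fold change ± SE (AKBA over control) for the 6 genes, with all libraries, with the replicate number as a block, by DESeq2, and with each library left out in turn. Il33 moves to -1.69 without control replicate 3, Il1rl1 to -0.98 without control replicate 2 and Tslp to -0.52 without control replicate 3, while Crlf2, Il1rap and Il7r shift little.

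Levels were set against each other per gene length with the deposited FPKM. In AKBA libraries Crlf2 (8.29 ± 0.87 FPKM) and Il33 (7.26 ± 1.05 FPKM, SD, n = 3 each) were the highest and their ranges overlapped. Il1rap followed at 4.68 ± 0.31 FPKM, then Tslp at 3.02 ± 1.18 and Il7r at 2.10 ± 0.21, whose ranges overlapped with each other. Il1rl1 was the lowest at 0.70 ± 0.23 FPKM, with no library as high as the lowest of Il7r. The ranges of Il1rap (4.37 to 4.99 FPKM) and Tslp (1.85 to 4.21 FPKM) were apart in AKBA libraries.

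In control libraries the order was led by Il33 at 38.1 ± 28.8 FPKM, ahead of Crlf2 at 11.1 ± 1.37 FPKM (SD, n = 3 each). In control replicate 1, however, Il33 (9.03 FPKM) stood below the lowest control value of Crlf2 (10.02 FPKM), so the first places are not separated over the group. Tslp came next at 6.28 ± 3.66 FPKM, with a range of 2.74 to 10.04 FPKM that just reached Crlf2 and took in all control values of Il1rap (4.13 ± 0.27 FPKM). Il1rl1 (2.54 ± 2.15 FPKM) and Il7r (2.21 ± 0.22 FPKM) closed the order with overlapping ranges, and the range of Il1rl1 (1.14 to 5.01 FPKM) took in that of Il1rap as well. The 1 length per gene behind the FPKM values, which the counts imply to be 11366 bases for Il1rap and 1495 for Crlf2, need not be that of the transcripts present in skin.

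**Figure D3:**
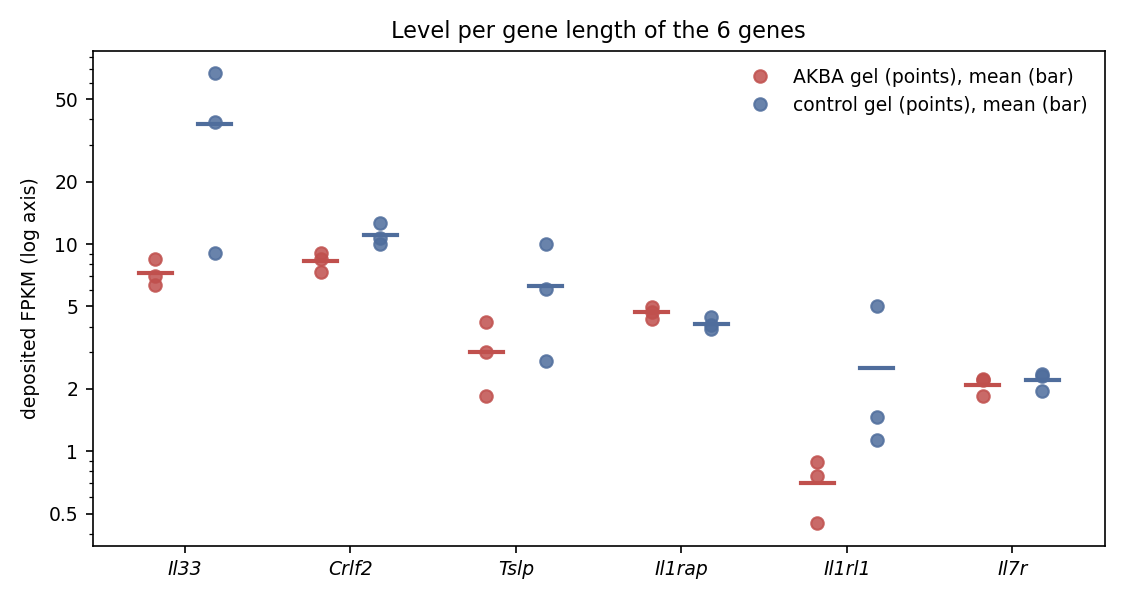
Deposited FPKM of the 6 genes on a log axis, AKBA gel (red) left of control gel (blue), points for the 3 libraries of a group and a bar for their arithmetic mean. Il33 has its AKBA points between 6.38 and 8.43 FPKM and its control points between 9.03 and 66.7 FPKM, and Il1rl1 lies below 1 FPKM in all AKBA libraries.

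Marker sums are given for the whole of each list. Basal keratinocyte markers summed to 14740, 10160 and 13270 CPM in AKBA libraries and to 13900, 20940 and 32980 CPM in control libraries, an order of control libraries that Il33 shares. Most of the control sums came from Krt14. Krt5, Itga6 and Itgb4 had this order too, and Trp63 and Col17a1 did not. How many of all tested genes share such an order was not counted, here and below, so nothing is read from it. Of the 6 markers 5 were negative, with a median of -0.35 and 0 past the edgeR threshold. Among them Krt14, the basal keratin, was at 6775 ± 2154 CPM in AKBA libraries and 15740 ± 8051 CPM in control libraries, with no overlap (edgeR adjusted p = 0.343, DESeq2 adjusted p = 0.0407). Krt5 was at 4545 ± 347 CPM in AKBA libraries and 5350 ± 1425 CPM in control libraries (SD, n = 3 each, for both genes). Immediate early and stress genes, which respond to handling of a tissue, summed to 376 to 398 CPM in AKBA libraries and to 408, 561 and 766 CPM in control libraries. Of the 8 genes of that list all had a negative log2 fold change, 0 passed the edgeR test and DESeq2 called 2 of them, Fos and Fosb, lower.

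Neutrophil markers had the same order of control libraries, with sums of 715, 311.5 and 845 CPM in AKBA libraries and 713, 1113 and 3409 CPM in control libraries. Of 8 listed genes 5 were tested, all 5 were negative, 0 passed the edgeR threshold, and the median of -1.23 was the most negative of all marker lists. That median rested on 1 control library, moving to -0.62 without control replicate 3. The receptors Csf3r and Cxcr2 had smaller differences (-0.61 ± 0.24 and -0.37 ± 0.25). Most of the sum came from S100a8 (-1.23 ± 0.58) and S100a9 (-1.75 ± 0.69), alarmin proteins that keratinocytes also make. Mmp9, a matrix protease, was called lower by DESeq2 (-2.03 ± 0.51, DESeq2 adjusted p = 0.00366), while the defining marker Ly6g had 0 counts in all 6 libraries. Endothelial markers summed to 393, 221 and 347 CPM in AKBA libraries and 443, 367 and 482 CPM in control libraries. Of these 8 of 8 were negative, with 0 past the edgeR threshold and a median of -0.34. Suprabasal keratinocyte markers went the other way, with 55220, 65120 and 34820 CPM in AKBA libraries and 39270, 25370 and 30130 CPM in control libraries. All 6 were positive with a median of 0.65, 0 passed the edgeR threshold, and DESeq2 called Lor, a protein of the cornified layer, higher (1.27 ± 0.42, DESeq2 adjusted p = 0.032). The part of these cells and genes in the level of Il33 was not tested.

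Mast cells, which carry ST2, were measured by 12 markers. These summed to 143, 107 and 179 CPM in AKBA libraries and to 169, 173 and 207 CPM in control libraries, with Mcpt4 and Cpa3 the most abundant. Most of each sum came from the proteases Mcpt4, Cpa3, Cma1 and Tpsb2. For 11 tested markers the median log2 fold change was -0.36, with 10 negative and 0 past the edgeR threshold, beside a median of 0.0037 and 49.6% negative over all genes tested. Hdc, which makes histamine, was the marker with the largest difference (-1.17 ± 0.44, edgeR adjusted p = 0.345). It had 344 counts in control replicate 2 against 112 and 191 in the other control libraries. Kit and Tpsab1 were also highest of the control libraries in replicate 2. By contrast Cpa3, Mcpt4, Cma1, Tpsb2, Ms4a2, Gata2, Slc18a2 and Mrgprb2 had their lowest control CPM in that library. Eosinophil and basophil markers were scarce, with sums of 0.85 to 2.86 CPM in AKBA libraries and 3.32 to 4.57 CPM in control libraries. From 6 listed, 4 fell below the low-count filter. The 2 tested were both negative, with a median of -0.53 and 0 past the edgeR threshold. Of 8 markers of group 2 innate lymphoid cells 5 were tested, and the abundant ones, Rora and Gata3, are also made by keratinocytes. The 8 summed to 312 to 413 CPM in AKBA libraries and 279.5 to 356 CPM in control libraries, mostly from Rora and Gata3. Icos (-0.70 ± 0.40) and Ptgdr2 (-0.45 ± 0.37) were negative, and Rora, Gata3 and Il17rb positive (0.22 to 0.42). The median of the list was 0.22, and 0 passed the edgeR threshold. The 5 regulatory T cell markers summed to 31.4 to 35.5 CPM in AKBA libraries and 22.2 to 31.6 CPM in control libraries, mostly from Ikzf2, which was at 0.69 ± 0.22 on the log2 scale. The other 4, Foxp3, Il2ra, Ctla4 and Tnfrsf4, were all negative (-0.42 to -0.22), the median of the list was -0.27, and 0 passed the edgeR threshold. T cell markers summed to 17.6 to 27.9 CPM in AKBA libraries and 23.01 to 33.9 CPM in control libraries. Of 7 tested, 6 were negative, with a median of -0.19 and 0 past the edgeR threshold. Dendritic cell markers summed to 29.7 to 39.3 CPM in AKBA libraries and 35.2 to 42.8 CPM in control libraries. Among 8 tested, 5 were negative, with a median of -0.08 and 0 past the edgeR threshold. For macrophage markers the sums were 1528 to 1661 CPM in AKBA libraries and 1704 to 2346 CPM in control libraries, with 8 of 8 negative, 0 past the edgeR threshold, and Mrc1 (-0.71 ± 0.17) and Cd163 (-0.79 ± 0.14) called lower by DESeq2 (adjusted p = 0.011 and 0.00114). Langerhans cell markers summed to 1011, 1505 and 992.5 CPM in AKBA libraries and 1126, 951 and 1002 CPM in control libraries, with 6 of 6 positive, 0 past the edgeR threshold, and Cd207 (1.18 ± 0.31) called higher by DESeq2 (adjusted p = 0.0246). Medians were -0.31 for fibroblast, 0.27 for skeletal muscle and -0.10 for hair follicle markers, with 0 past the edgeR threshold in each, and the hair follicle sum varied between 23.5 and 1991 CPM in AKBA libraries and between 94.6 and 2877 CPM in control libraries. What these cells add to the levels of Il1rl1, Crlf2 and Il7r was not tested.

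**Figure D4:**
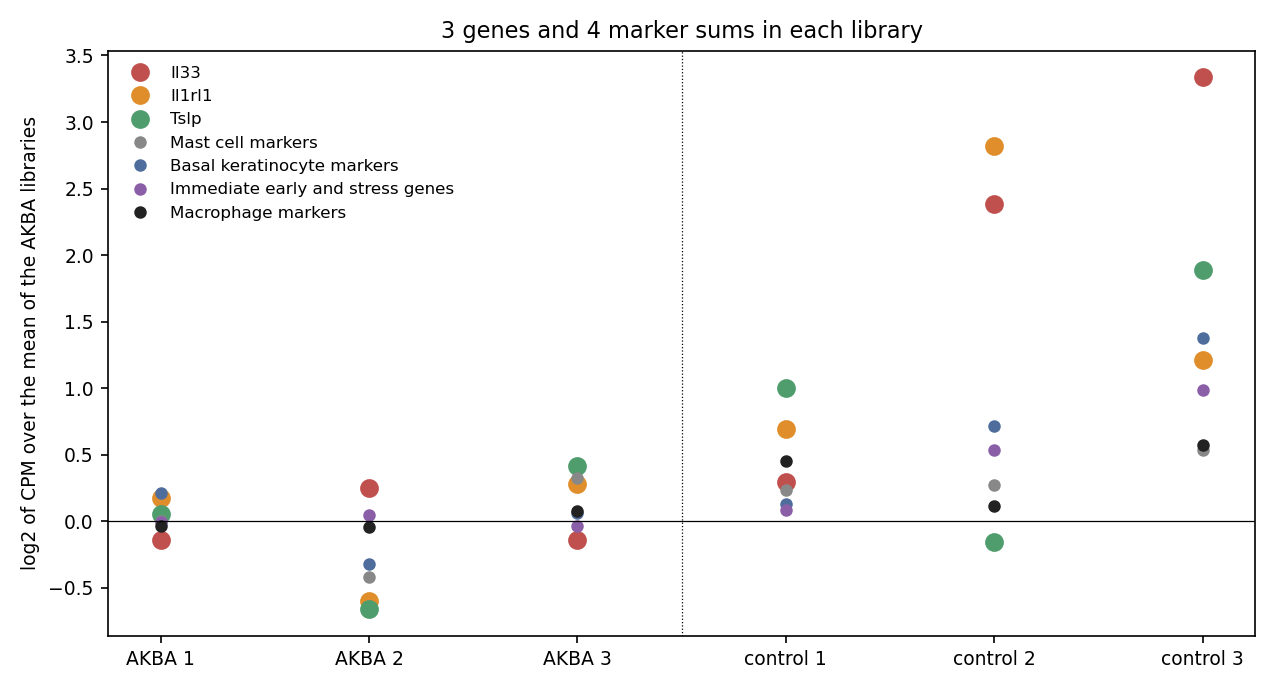
log2 of the CPM in each library over the mean of the 3 AKBA libraries, for Il33, Il1rl1 and Tslp (large points) and for the summed CPM of 4 marker lists (small points). Il33 is highest in control replicate 3, Il1rl1 in control replicate 2. Of the 4 marker sums drawn none is as far above the AKBA mean as Il33 is in those 2 libraries. The neutrophil sum, not drawn, was at 3409 CPM in control replicate 3 and at 311.5 to 845 CPM in AKBA libraries.

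Genes of the signalling chain below ST2 differed by small amounts. All 18 listed genes were tested, 0 passed the edgeR threshold in either direction, 11 had a negative log2 fold change, and the median was -0.07. Mapk14, the p38α kinase, had a log2 fold change of -0.16 ± 0.14, and the adaptor Tab2 was at 148 ± 16.2 CPM in AKBA libraries and 129.9 ± 8.74 CPM in control libraries (SD, n = 3 each). Irak2, a kinase of the receptor complex, had the largest positive value (0.52 ± 0.23 on the log2 scale). Myd88, the adaptor that ST2 recruits, had the largest negative one (-0.38 ± 0.13), at 39.4 ± 3.48 CPM in AKBA libraries and 51.2 ± 6.01 CPM in control libraries with no overlap. No gene of this chain differed by as much as Il33 or Il1rl1, which were chosen with their differences known.

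In the chain below the TSLP and IL-7 receptors 14 of 14 genes were tested and 0 passed the edgeR threshold. The median was -0.15 and 11 values were negative. Il2rg, the common γ chain with which Il7r forms the IL-7 receptor, had 152, 114 and 176 counts in AKBA libraries and 230, 211 and 229 counts in control libraries (log2 fold change -0.57 ± 0.16, edgeR adjusted p = 0.331). Socs1 (-0.91 ± 0.26) and Socs3 (-0.87 ± 0.37), both feedback inhibitors of JAK signalling, had the largest differences. Socs3 was at 23.5 ± 2.60 CPM in AKBA libraries and 42.9 ± 22.1 CPM in control libraries, where control replicate 2 held 1452 counts, replicate 3 held 957 and replicate 1 held 409. Stat3 and Jak1, the most abundant, had log2 fold changes of -0.35 ± 0.15 and -0.16 ± 0.11. Il7, the other ligand of Il7r, had 71, 45 and 74 counts in AKBA libraries and 73, 46 and 35 in control libraries (0.34 ± 0.32).

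Proteases known to cut IL-33, some of which raise and others end its activity, had a median of -0.34 over 10 tested genes of 12, with 8 negative and 0 past the edgeR threshold. Capn1 and Capn2, calcium-dependent calpains, were the most abundant. Capn2 was at 119 ± 9.61 CPM in AKBA libraries and 207 ± 63.4 CPM in control libraries without overlap (log2 fold change -0.79 ± 0.22, DESeq2 adjusted p = 0.0412), and Capn1 at 187 ± 10.97 CPM in AKBA libraries and 174.5 ± 12.8 CPM in control libraries (SD, n = 3 each). The granzyme Gzmb and the neutrophil protease Prtn3 had the largest values, -0.84 ± 0.43 and -0.82 ± 0.33, from 5 to 16 counts in AKBA libraries and 15 to 27 counts in control libraries.

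Among 18 genes that induce or regulate epidermal Tslp and Il33, the median was 0.03, with 8 negative values and 0 past the edgeR threshold. Duox1, an oxidase that takes part in IL-33 release from airway epithelium, had 541, 398 and 576 counts in AKBA libraries and 625, 1386 and 2388 counts in control libraries. Its control libraries had the same order as those of Il33, with replicate 1 close to the AKBA libraries (log2 fold change -1.50 ± 0.42, DESeq2 adjusted p = 0.0129). The share of all tested genes with that order was not counted, and nothing is read from it. Klk7, a kallikrein of the upper epidermis, was at 1162 ± 152 CPM in AKBA libraries and 1305 ± 461 CPM in control libraries, and its inhibitor Spink5 at 872 ± 216 CPM in AKBA libraries and 752 ± 235 CPM in control libraries (SD, n = 3 each). Klk14 had a log2 fold change of -1.05 ± 0.70 and varied from 61 to 672 counts in AKBA libraries and from 330 to 981 counts in control libraries.

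Type 2 cytokines themselves were scarce. Il4 had 25, 28 and 39 counts in AKBA libraries and 26, 21 and 28 in control libraries. Il5 had at most 1 count in any library, Il13 at most 1 in AKBA libraries and 1 to 4 in control libraries, and Il25, another epithelial cytokine of this kind, 1 to 3 in AKBA libraries and 0 to 1 in control libraries. Il31 had 0 counts in all 6 libraries, which with 3 counts as the limit allows up to 0.132 to 0.157 CPM per library. Of 22 genes in this list 16 were tested, with a median of -0.13, 8 negative values and 0 past the edgeR threshold.

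The receptor chain Il4ra, shared by IL-4 and IL-13, had 1250, 1024 and 1379 counts in AKBA libraries, against 1411, 3994 and 3464 in control libraries. Control replicate 1 stood next to the AKBA libraries, and the log2 fold change was -1.22 ± 0.32 (edgeR adjusted p = 0.331, DESeq2 adjusted p = 0.0129). Osmr, a chain of the IL-31 and oncostatin M receptors, was named after its values were seen because DESeq2 called it (-0.82 ± 0.20, DESeq2 adjusted p = 0.0228). Postn, a matrix protein that IL-13 induces and fibroblasts make, was at 655 ± 222 CPM in AKBA libraries and 945 ± 90.7 CPM in control libraries, and Il13ra1 at 122 ± 12.5 CPM in AKBA libraries and 154 ± 36.4 CPM in control libraries (SD, n = 3 each). Arg1 had 1137, 232 and 1544 counts in AKBA libraries and 2216, 1949 and 3163 counts in control libraries (-1.35 ± 0.54). Retnla had 224, 1192 and 75 counts in AKBA libraries and 137, 78 and 39 in control libraries (2.71 ± 1.02), a difference carried by AKBA replicate 2.

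Other receptors of the IL-1 and IL-18 family had a median of -0.43 over 5 tested genes of 6, with 0 past the edgeR threshold. Il1rl2, the IL-36 receptor, was at 118 ± 6.33 CPM in AKBA libraries and 159 ± 33.4 CPM in control libraries (SD, n = 3 each), and the groups did not overlap. Il1r1, the IL-1 receptor, was at -0.54 ± 0.24 on the log2 scale and the decoy receptor Il1r2 at 0.55 ± 0.26. Control replicate 2 was the highest library for Il1r1 (1985 counts), as it was for Il1rl1. How many tested genes share that peak was not counted.

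**Figure D5:**
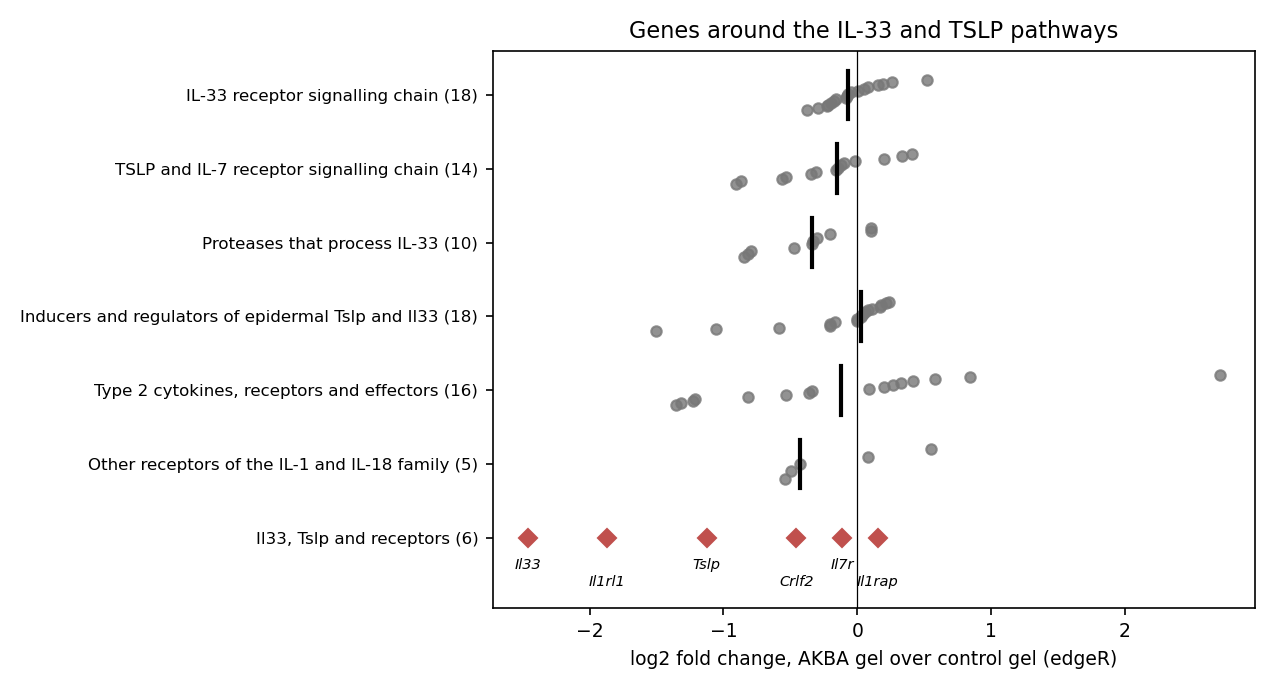
edgeR log2 fold changes (AKBA over control) for the tested genes of 6 lists (grey points, the number tested in brackets, black bar for the median) and for the 6 genes described here (red). Il33 at -2.46 and Il1rl1 at -1.87, chosen with their differences known, lie beyond all negative values of these 6 lists. List medians lie between -0.43 and 0.03. The marker lists, not drawn, hold Fosb at -2.29 and Mmp9 at -2.03.

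Genes whose log2 CPM followed each of the 6 most closely over the 6 libraries are named by Pearson correlation, as a description across libraries that share depth and group. They are the highest of 17023 tested genes over only 6 libraries, so high correlations and shared peak libraries follow from the choice. For Il33 they were Rps6ka4 (0.998), Itga6 (0.998) and Fxyd5 (0.997). Itga6, an integrin of basal keratinocytes, was at 227, 239 and 218.5 CPM in AKBA libraries and 233, 346 and 416 CPM in control libraries. Il1rl1 was followed most closely by Csf2rb2 (0.993), Pak2 (0.992) and Il1b (0.987). Il1b was at 1.77, 1.44 and 2.26 CPM in AKBA libraries and 2.52, 14.2 and 4.17 CPM in control libraries. Its peak in control replicate 2 follows from the choice by pattern. The closest to Tslp were Ehbp1l1 (0.983), Coro1a (0.982) and Klra13-ps (0.979), all lower in control replicate 2 than in the other control libraries. Dram1 (0.997), Cxcl1 (0.996) and Zfp207 (0.996) were closest to Crlf2. Gm10083, Me1 and Tm7sf2 were closest to Il1rap (0.992 to 0.993), and Duox2, Gm37703 and Lyl1 to Il7r (0.988 to 0.998). None of these 18 genes appears under more than 1 of the 6.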

How the data were processed

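Messenger RNA was counted in 6 libraries, 3 with AKBA gel and 3 with control gel, grouped by their titles. The authors deposited 1 table with a count and an FPKM value per gene and library, and the authors' own comparison as log2 fold changes with p-value columns. The build GRCm38 and the tools CASAVA 1.8, edgeR and RSEM come from the submitters' processing notes, which name no roles. Whether the deposited counts were rounded from estimates, and whether counting used strand, is not stated.

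Counts were fitted as deposited with edgeR 4.0.16 in R 4.3.3 (TMM scaling, default low-count filter, 17023 genes kept, 2-sided quasi-likelihood F test, Benjamini-Hochberg adjustment over all genes kept, threshold 0.05). The SE is the log2 fold change over the square root of F. No pair of libraries within a group looked like 1 library deposited again (lowest chi-square per degree of freedom 28.3). The fit was tested on simulated counts. Alternatives were DESeq2 1.42.0, its size factors within edgeR, the replicate number as a block, no filter, a stricter filter and each library left out. FPKM was used only to compare levels between genes.

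The genes, the lists and the rule for naming were chosen with earlier results of these data known. The rule named the 6 genes, Il7, Il25, Il4, Il5, Il13, Il4ra and Il2rg. In each pathway list it named the 2 most abundant and the 2 with the largest difference where none passed. It also named the 2 most abundant and any countless genes of each marker list, not all printed, and the 3 genes closest in pattern to each of the 6 (log2 CPM, prior count 2). Named outside the rule, with values seen, were Osmr, Fos, Fosb, Mmp9, Lor, Cd163 and Cd207 for a DESeq2 call and Hdc for its difference. So were Il31 for its lack of counts, and Foxp3, Ctla4, Tnfrsf4, Icos, Ptgdr2 and Il17rb to show members of their lists singly. Csf3r, Cxcr2, Itgb4, Trp63, Col17a1 and most mast cell markers were named for the same reason.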

Additional observations from a re-analysis of the deposited data

How the results depend on the processing

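edgeR called 0 genes with all 6 libraries, with DESeq2 size factors, with no filter, with the stricter filter and with the replicate number as a block, and 0 to 13 lower and 0 to 1 higher when a library was left out, the most without control replicate 1. The DESeq2 Wald test called 209 lower and 95 higher, among them Il1rl1 (-1.88, adjusted p = 0.0136). Il33, Il1rl1, Tslp, Crlf2 and Il1rap kept the sign of their log2 fold change under every alternative run. When single libraries were dropped, the values spanned -2.93 to -1.69 for Il33, from -2.21 to -0.98 for Il1rl1, from -1.51 to -0.52 for Tslp, from -0.53 to -0.39 for Crlf2, from 0.08 to 0.20 for Il1rap and from -0.22 to -0.0039 for Il7r. After dropping control replicate 3 together with AKBA replicate 2, a choice made after seeing the data, Il7r reversed to 0.0638, Il33 was at -1.83 and Tslp at -0.28, and the cause was not tested. The stricter filter removed Tslp. Over all tested genes same-numbered libraries did not deviate together (correlations of 0.0724, 0.0185 and -0.327), but 3 libraries per group cannot exclude a pairing. With the replicate block Il33 was at -2.04, Il1rl1 at -1.57 and Tslp at -0.997. The SE of Tslp was 0.26 with the block and 0.50 without it, that of Il1rl1 0.59 and 0.55. Tslp had the same order of replicates in both groups, lowest in replicate 2 and highest in replicate 3. The order of the 6 genes per length was kept in both groups when TMM-scaled CPM per kilobase replaced the deposited FPKM. Some list medians were less stable. That of group 2 innate lymphoid cell markers was -0.08 without control replicate 2. That of regulatory T cell markers was 0.70 under the stricter filter, which left 1 gene. With single libraries dropped, the hair follicle median spanned -1.17 to 2.63, the neutrophil median -1.59 to -0.62 and the eosinophil and basophil median -1.76 to -0.50. Precision did not go by count: Il33 had the largest SE of the 6 (0.64), and Il7r, with 113 to 172 counts, one of 0.18.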
